A study of Mus musculus with 30 samples.

Results

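The genes described are the collagen genes of the mouse other than Col4a1 and Col4a2, taken as every row of the count table whose symbol reads Col, a number, the letter a and another number. This rule gave 42 genes of 44 collagen rows and 54134 rows in all. Levels are given in CPM, the usual unit in which a gene's count is scaled to the total of its library. A mean of 2 CPM or more in at least 1 group was reached by 24 of the 42 genes, whose values are given here. The other 18 stayed below it in every group, namely Col4a3, Col4a4, Col5a3, Col6a1, Col6a3, Col6a4, Col6a6, Col8a2, Col9a1, Col10a1, Col12a1, Col15a1, Col17a1, Col19a1, Col20a1, Col24a1, Col25a1 and Col28a1. Just above the limit were Col6a2 and Col11a2, each with 2.19 CPM in its highest group, and Col16a1 with 2.21. Just below it were Col25a1 with 1.70, Col12a1 with 1.65 and Col5a3 with 1.62.

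Collagens are the main proteins of the extracellular matrix and are built from chains that wind around each other into a triple helix inside the cell. The fibril-forming types give tissues tensile strength, the network-forming types build sheets such as the basement membrane, and the fibril-associated, beaded, multiplexin and transmembrane types decorate fibrils or hold cells to the matrix around them. In the tail end of the embryo, a basement membrane lies under the epiblast and the neural tube, and fibrillar collagens become abundant in the mesoderm that later forms cartilage and connective tissue.

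The libraries came from Bruce4 mouse embryonic stem cells (ESCs), either wildtype or Nr6a1-/-, as they were turned into neuromesodermal progenitors (NMPs), the cells that make spinal cord and mesoderm at the tail end of the embryo. Nr6a1 is an orphan nuclear receptor, and the Nr6a1-/- cells are 1 clone with a CRISPR/Cas9 deletion in an internal exon of each allele, so that genotype and clone cannot be told apart. Cells of both genotypes were freed of fibroblast feeders before plating and had FGF2 throughout, for 48 h by d2. The Wnt pathway agonist CHIR99021 (CHIR) was then added to the FGF2, for 12 h at d2.5 and 24 h at d3. After d3 the cells were kept in FGF2 and CHIR for a further day, without Gdf11 (d4) or with this growth factor for 24 h (d4G). There were 3 replicates in every group and 30 libraries over the 10 groups. The labels do not say that these were separate cultures, so that p-values measure only the spread between these samples.

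Library totals ran from 1570714 to 3688197 counts with a median of 2366002, so that 1 count was 0.271 to 0.637 CPM and a count of 0 allowed up to 0.813 to 1.91 CPM (3 counts, counting error only). The deletion lies away from the 3′ end that these libraries read, so Nr6a1 counts do not check the genotype: at d3 they were 167 to 187 CPM in wildtype and 257 to 322 CPM in Nr6a1-/- libraries. Summed NMP markers (T, Sox2, Nkx1-2 and Cdx2) were 117 to 137 CPM at d2 and 590 to 627 CPM at d3 in wildtype cells, and 849 to 1018 CPM at d3 in Nr6a1-/- cells. One library stood apart, since d4 wildtype replicate 2 held 205 CPM of summed epiblast markers (Pou5f1, Fgf5, Otx2, Pou3f1 and Utf1) against 21.4 and 10.7 CPM in its group. The labels give the same index to 6 pairs of libraries, 4 of a d4 with a d4G library and 2 of a d3 with a d4 library, without naming their pools.

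Of the 24 genes, 9 were fibril-forming, 3 network-forming, 5 fibril-associated, 2 beaded filament, 2 transmembrane, 1 a multiplexin, 1 an anchoring fibril collagen and 1 of no class here. Counts come from 3′ ends and are not adjusted for gene length, so levels are compared between groups and not between genes. Col18a1 is the multiplexin of basement membranes whose C-terminal piece is endostatin. Its share of the summed CPM of the 24 genes, which reflects 3′ counts and leaves out Col4a1 and Col4a2, was 74.4% in d2 wildtype and 72.1% in d2 Nr6a1-/- libraries (means of 3). At d4G the share was 23.5% in wildtype and 15.9% in Nr6a1-/- libraries. Without Col18a1, the summed level of the genes was 29.0 to 43.8 CPM in d2 wildtype libraries, 108 to 111 CPM at d3, 99.99 to 107 CPM at d4 and 186 to 199.9 CPM at d4G. In Nr6a1-/- libraries the same sum was 44.6 to 52.5 CPM at d2, 103 to 119 CPM at d3, 77.4 to 98.0 CPM at d4 and 173 to 209 CPM at d4G.

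**Figure D1:**
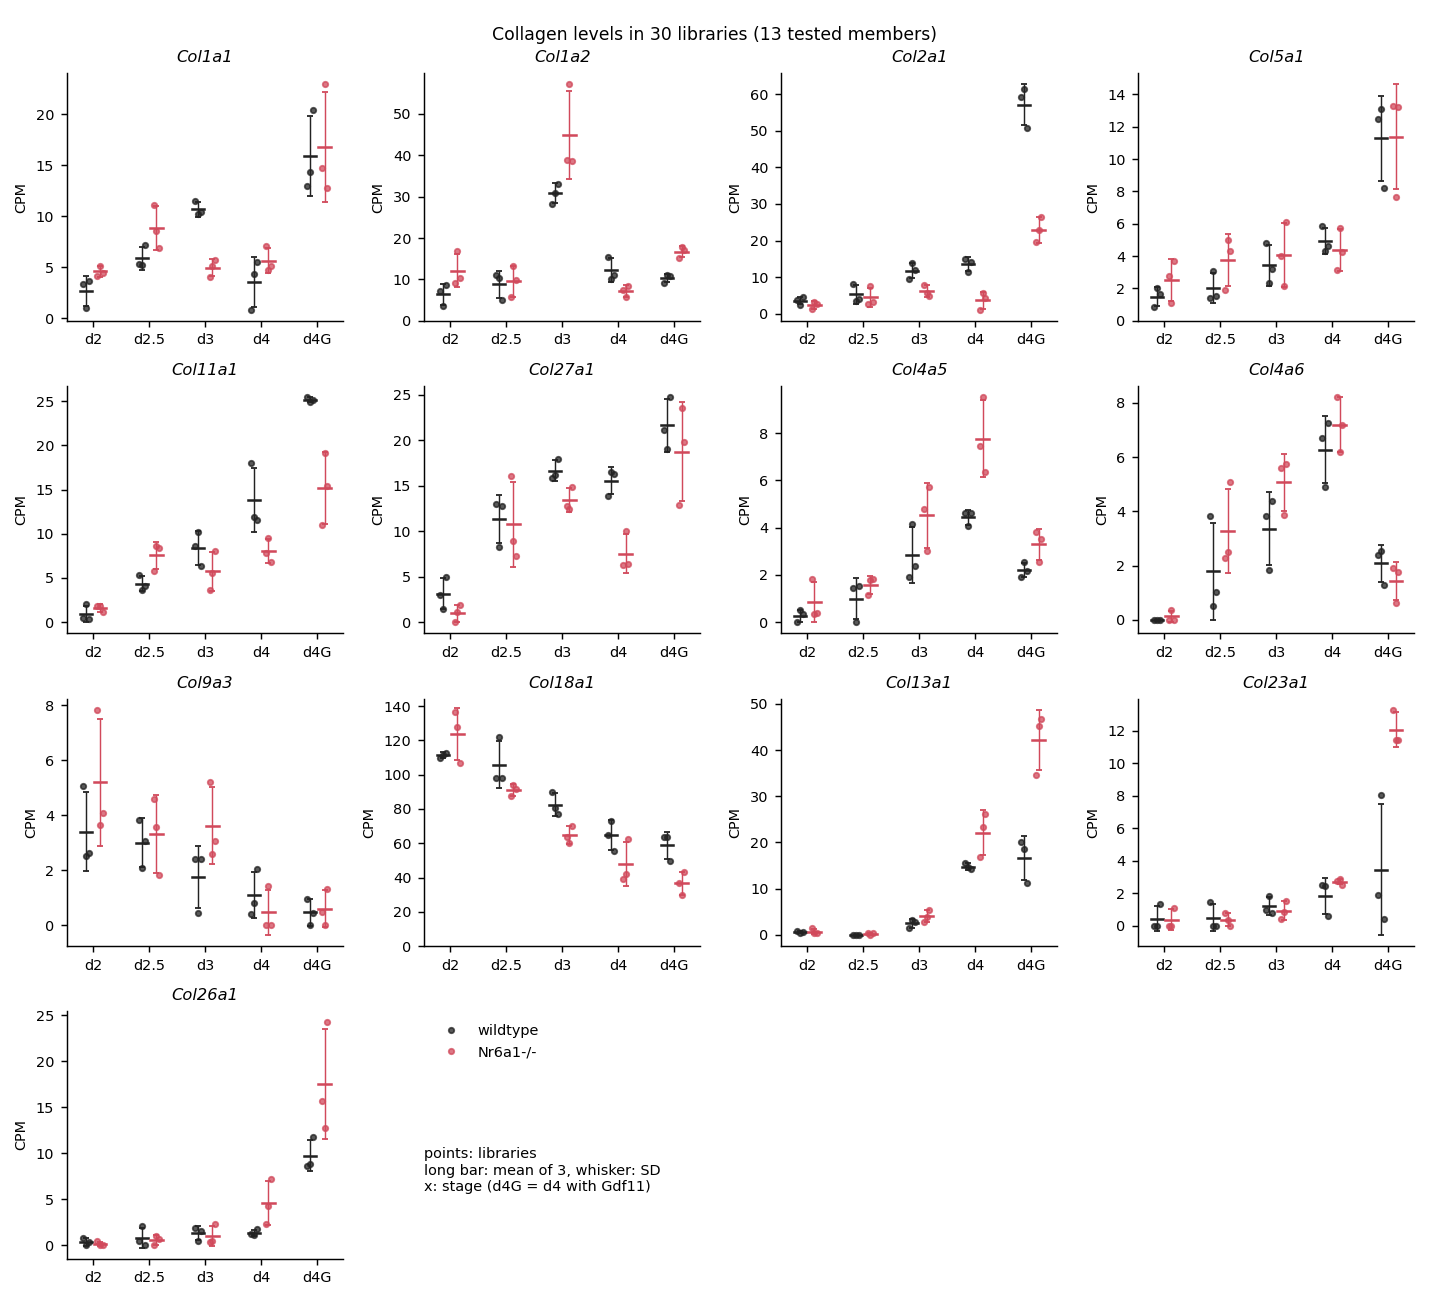
CPM (y axis, one scale per gene) of the 13 tested collagen genes at the 5 stages (x axis) in wildtype (black) and Nr6a1-/- (red) cells. Points are libraries, bars are means of 3 and whiskers are SDs. Col18a1 was 110 to 113 CPM at d2 and 49.5 to 63.4 CPM at d4G in wildtype libraries. In Nr6a1-/- libraries it was 107 to 136 CPM at d2 and 29.9 to 43.1 CPM at d4G. Col2a1 reached 50.8 to 61.3 CPM in d4G wildtype libraries.

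Tests were run with edgeR's quasi-likelihood test over 12149 genes, those that reached over 10 counts and over 2 CPM in 2 or more libraries of a single group, and a gene was called at a Benjamini-Hochberg FDR below 0.05. Of the 24 genes, 13 passed that filter and 11 did not. Col23a1 passed it only through d4G Nr6a1-/- libraries, where it was high, and Col9a3 only through d2 Nr6a1-/- libraries. Col26a1 passed it only through the d4G groups and Col13a1 only through the d4 and d4G groups. Col4a5 and Col4a6 passed it only through d3 Nr6a1-/- and the d4 groups.

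From d2 to d3, as CHIR turned epiblast-like cells into NMPs, most tested collagen genes rose in both genotypes. Over the same step the summed epiblast markers went from 883 to 965 CPM down to 57.6 to 65.7 CPM in wildtype libraries. In wildtype cells 8 rose and 1 fell, which is 9 of 13 beside 37.4% of all genes called, and in Nr6a1-/- cells 7 rose and 1 fell, beside 31.7% of all genes. Bulk RNA cannot tell more cells of a type from more RNA in each cell, here or in the results that follow. The 7 genes that rose in both genotypes were Col1a2, Col2a1, Col4a5, Col4a6, Col11a1, Col13a1 and Col27a1. Of the tested members, only Col1a1, Col1a2, Col9a3 and Col18a1 had passed the filter through a d2 group. The others passed it only through later groups, so the direction of their change from d2 is not independent of the filter.

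Col4a6 and Col4a5 encode basement membrane chains and lie head to head on chromosome X (GRCm38), Col4a6 at 141165403 to 141474076 on the minus strand and Col4a5 at 141475385 to 141689234 on the plus strand, with 1309 bases between their starts. Col4a6 had no count in any of the 3 d2 wildtype libraries and 1 count over the d2 Nr6a1-/- libraries. At d3 it was 3.84, 1.85 and 4.39 CPM in wildtype libraries, at least 8.42 times the level allowed by 3 counts over the d2 group, and 5.61, 3.87 and 5.73 CPM in Nr6a1-/- libraries. Col4a5 was 0, 0.501 and 0.329 CPM in d2 wildtype and 1.92, 4.16 and 2.39 CPM in d3 wildtype libraries (log2 fold change 3.10, SE 0.74, FDR 0.00109). Every d3 library of either genotype lay above every d2 library of its genotype for both genes. In Nr6a1-/- cells the rise of Col4a5 had log2 fold change 2.40, SE 0.53, FDR 0.000506, with a log2 fold change of 3.41 without d2 Nr6a1-/- replicate 1, and neither gene was called between the genotypes at any stage.

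Col11a1, a fibril-forming chain of early mesenchyme and cartilage, was 0.421, 2 and 0.329 CPM in d2 wildtype and 8.65, 10.2 and 6.38 CPM in d3 wildtype libraries (log2 fold change 3.21, SE 0.48, FDR 1.46e-06). Col27a1, another fibril-forming chain of cartilage, was 2.95, 1.5 and 4.93 CPM in d2 wildtype and 15.9, 16.2 and 18 CPM in d3 wildtype libraries (log2 fold change 2.24, SE 0.34, FDR 2.43e-06), and from 0, 1.1 and 1.86 CPM to 12.8, 12.5 and 14.9 CPM in Nr6a1-/- libraries (log2 fold change 3.57, SE 0.45, FDR 5.48e-08). Groups did not overlap in any of these comparisons. Without d2 wildtype replicate 2 the log2 fold change of Col11a1 was 4.26, and without d2 Nr6a1-/- replicate 3 that of Col27a1 in Nr6a1-/- cells was 4.29. The call of Col13a1 in wildtype cells was less firm: it had 5 counts over the d2 and 17 over the d3 libraries (log2 fold change 1.76, FDR 0.0258), and without d2 wildtype replicate 2 or 3 or d3 wildtype replicate 2 or 3 the FDR was 0.0632 to 0.0898. By DESeq2 it was 0.0505 and without a filter 0.0589. The call of Col2a1 in Nr6a1-/- cells (log2 fold change 1.25, FDR 0.0229) was lost without d2 Nr6a1-/- replicate 1 or 3 or d3 Nr6a1-/- replicate 1 (FDR 0.1, 0.0562 and 0.126).

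Col18a1 was the 1 tested member that fell from d2 to d3, in both genotypes. It was 109.8, 112 and 113 CPM in d2 and 89.8, 80.5 and 77 CPM in d3 wildtype libraries (log2 fold change -0.50, SE 0.13, FDR 0.00172). In Nr6a1-/- cells it was 136, 128 and 107 CPM and 63.7, 60.1 and 70.3 CPM (log2 fold change -0.98, SE 0.13, FDR 1.19e-07). The difference between the genotypes in this change was not called for Col18a1 (log2 fold change -0.47, SE 0.18, FDR 0.191). For no tested member was it called: 0 of 13 by edgeR beside 2.27% of all genes, with 2 at an unadjusted p below 0.05 (Col1a1 and Col18a1) and 0 by DESeq2. Here DESeq2 gave an FDR to only 5 members.

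From d3 to d4, Col13a1 rose in both genotypes and Col1a2 fell in both. In wildtype cells Col11a1 and Col13a1 rose and Col1a1 and Col1a2 fell, 4 of 13 beside 21.1% of all genes. In Nr6a1-/- cells Col13a1 and Col26a1 rose and Col1a2 and Col9a3 fell, also 4 of 13, beside 25.9% of all genes. The call of Col26a1 (log2 fold change 2.11, FDR 0.00911) was lost without d3 Nr6a1-/- replicate 1 or 2 or d4 Nr6a1-/- replicate 3 (FDR 0.0509 to 0.0997), and the log2 fold change was 3.35 without d3 Nr6a1-/- replicate 3. Col13a1, a transmembrane collagen of cell adhesion sites, was 1.44, 3.24 and 2.79 CPM at d3 and 15.5, 14.6 and 14.2 CPM at d4 in wildtype libraries (log2 fold change 2.57, SE 0.32, FDR 1.84e-07). In Nr6a1-/- libraries it was 2.8, 3.87 and 5.35 CPM and 16.8, 23.3 and 26.2 CPM (log2 fold change 2.51, SE 0.27, FDR 7.85e-09). The d3 and d4 libraries did not overlap in either genotype, but Col13a1 had passed the filter only through the d4 and d4G groups. The call of Col11a1 in wildtype cells (log2 fold change 0.74, FDR 0.0396) was lost without d3 wildtype replicate 1 or 3 or d4 wildtype replicate 1 (FDR 0.0827, 0.215 and 0.206), by DESeq2 (FDR 0.0753), without normalisation factors or a filter (FDR 0.0576 and 0.0555) and in a fit of only the libraries compared (FDR 0.065).

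Col9a3, a fibril-associated chain found with type II collagen, was 5.21, 2.58 and 3.06 CPM in d3 and 0, 1.43 and 0 CPM in d4 Nr6a1-/- libraries, 27 and 3 counts (ratio of CPM 0.118, 95% counting interval 0.0229 to 0.383, FDR 0.00663). All 3 counts were in d4 Nr6a1-/- replicate 2. It was 2.4, 0.463 and 2.39 CPM and 0.42, 0.813 and 2.03 CPM in the wildtype libraries (log2 fold change -0.56, SE 0.71, FDR 0.632), where the stages overlapped. Its exons overlap those of Tcfl5 on the other strand, and it is not stated whether reads were counted by strand, so its reads cannot be told from those of Tcfl5.

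Between the genotypes, 0 of 13 tested members were called by edgeR at d2, beside 4.07% of all genes, and 0 at d2.5, beside 6.45%. At an unadjusted p below 0.05 there were 2 at d2 (Col1a2 and Col27a1) and 1 at d2.5 (Col11a1), and DESeq2 called 0 at both stages. However, DESeq2 gave an FDR to only 6 members at d2 and 8 at d2.5. At d3, 2 members were called, both lower in Nr6a1-/- cells, beside 10.8% of all genes. At d4, 6 were called, 2 higher and 4 lower, beside 18.9%, and 3 without the d4 wildtype replicate 2 that stood apart in its epiblast markers. At d4G, 5 were called, 2 higher and 3 lower, beside 7.92%. The median log2 fold change of the 13 genes ran from -0.32 at d3 to 0.54 at d2, beside medians of all genes between -0.01 and 0.02. Col2a1 was called at d3, d4 and d4G, Col11a1, Col13a1 and Col18a1 at d4 and d4G, Col27a1 and Col26a1 at d4, Col23a1 at d4G and Col1a1 at d3, while Col1a2, Col4a5, Col4a6, Col5a1 and Col9a3 were called at no stage.

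Summed by class, the 9 fibril-forming genes held 65.9 to 72.2 CPM in d4 wildtype and 35.2 to 45.7 CPM in d4 Nr6a1-/- libraries, and 142 to 150.05 CPM against 90.8 to 115 CPM at d4G. The 2 transmembrane genes held 14.8 to 18.0 CPM in d4 wildtype and 19.6 to 28.7 CPM in d4 Nr6a1-/- libraries, and 11.7 to 26.6 CPM against 48.0 to 58.1 CPM at d4G. Libraries of the genotypes did not overlap in either class at either stage. These sums were not tested and were carried by a few genes: of the 6 tested fibril-forming genes, Col2a1, Col11a1 and Col27a1 were called lower at d4 and Col2a1 and Col11a1 at d4G, where Col1a2 had a log2 fold change of 0.72, Col5a1 of 0.09 and Col1a1 of 0.08. Cell type markers differed at d4 as well. Summed presomitic mesoderm markers (Tbx6, Msgn1, Dll1 and Hes7) were 310.2 to 392 CPM in wildtype and 528 to 645 CPM in Nr6a1-/- libraries. Neural progenitor markers (Sox1, Pax6, Olig2 and Irx3) were 16.2 to 21 CPM and 1.955 to 3.81 CPM, and definitive endoderm markers (Sox17, Foxa2, Cer1 and Foxa1) 33.3 to 38.3 CPM and 1.69 to 5.71 CPM. Their part in the collagen values was not tested.

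**Figure D2:**
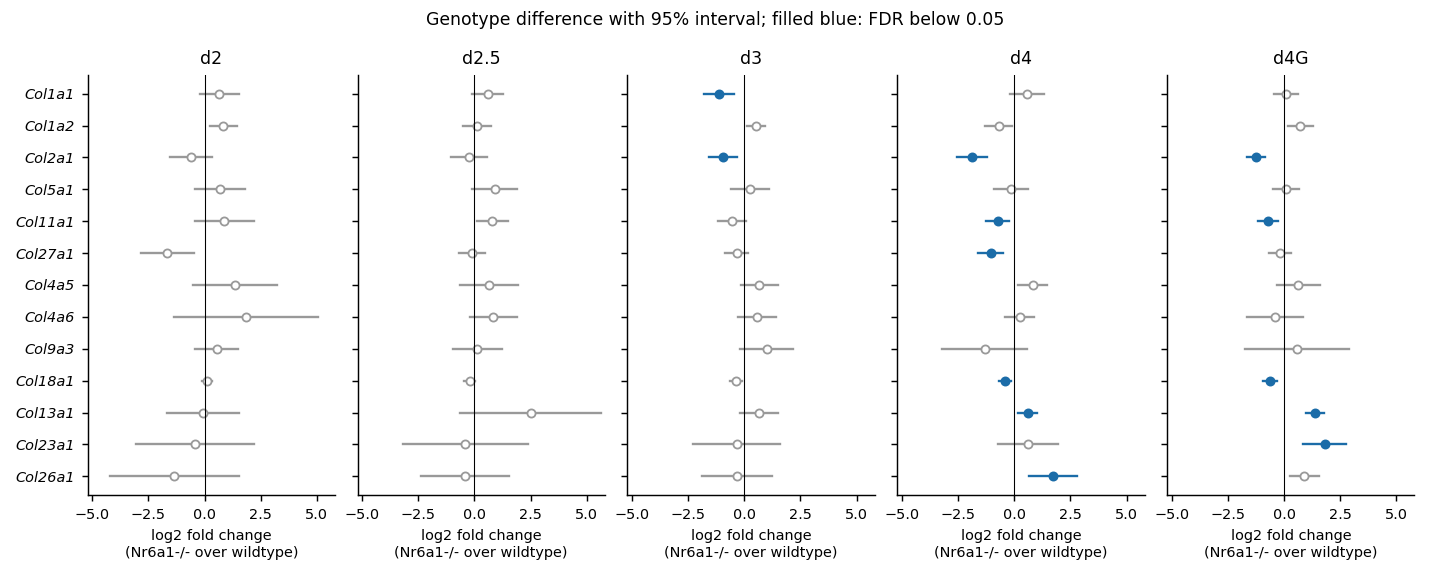
log2 fold change (x axis, Nr6a1-/- over wildtype) with 95% intervals for the 13 tested collagen genes (rows) at each stage (panels). Filled blue points passed an FDR of 0.05 and open grey points did not; Col2a1 lay at -0.95, -1.88 and -1.27 at d3, d4 and d4G, and Col13a1 at 0.59 and 1.38 at d4 and d4G.

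Col2a1 encodes the fibril-forming chain of cartilage, which is also made early in notochord and sclerotome (chromosome 15, 97975602 to 98004695, minus strand, GRCm38). It was 9.61, 13.9 and 12 CPM in d3 wildtype and 8.01, 5.58 and 4.97 CPM in d3 Nr6a1-/- libraries. At d4 it was 15.1, 11.4 and 14.2 CPM in wildtype and 1.17, 5.71 and 4.23 CPM in Nr6a1-/- libraries. At d4G it was 59.1, 61.3 and 50.8 CPM in wildtype and 19.5, 22.9 and 26.4 CPM in Nr6a1-/- libraries. Every Nr6a1-/- library lay below every wildtype library at the 3 stages. The differences had log2 fold change -0.95, SE 0.32, FDR 0.0465 at d3, log2 fold change -1.88, SE 0.34, FDR 6.42e-05 at d4 and log2 fold change -1.27, SE 0.21, FDR 3.26e-05 at d4G. The d3 call was lost without d3 wildtype replicate 2 or 3 or d3 Nr6a1-/- replicate 2 or 3 (FDR 0.117 to 0.164), with a replicate block (FDR 0.0511) and without normalisation factors (FDR 0.0562), whereas those at d4 and d4G were kept under every alternative run. At d2 and d2.5 the libraries overlapped, at 1.38 to 4.61 CPM and 2.68 to 8.17 CPM over both genotypes.

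Sox9, which is known to drive Col2a1 in cartilage, did not follow the same order at d4. It was 9.23, 9.22 and 11.3 CPM in d4 wildtype and 18.4, 12.8 and 20.7 CPM in d4 Nr6a1-/- libraries, higher in the latter (log2 fold change 0.83, SE 0.26, FDR 0.0234). With Gdf11 it was 44.7, 43.1 and 41.2 CPM in wildtype and 19.5, 14.6 and 18.5 CPM in Nr6a1-/- libraries, lower in the latter (log2 fold change -1.23, SE 0.23, FDR 0.000238). The other sclerotome and cartilage markers looked at (Pax1, Pax9, Nkx3-2 and Acan) added at most 4.32 CPM in total to Sox9 in any library, and the notochord markers (Noto, Shh, Foxj1 and Chrd) summed to at most 5.35 CPM. The part of these cell types in the Col2a1 result was not tested.

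Col11a1 and Col27a1 shared the direction of Col2a1 at d4. Col11a1 was 18, 11.9 and 11.6 CPM in d4 wildtype and 7.82, 9.52 and 6.76 CPM in d4 Nr6a1-/- libraries (log2 fold change -0.74, SE 0.26, FDR 0.0442). At d4G it was 25.5, 24.9 and 25.2 CPM and 10.9, 19.1 and 15.4 CPM (log2 fold change -0.72, SE 0.23, FDR 0.0478). The genotypes did not overlap at either stage, but both calls sat near the threshold: DESeq2 gave an FDR of 0.0756 at d4 and 0.117 at d4G. Without d4 wildtype replicate 1 or d4 Nr6a1-/- replicate 1, 2 or 3 the FDR at d4 was 0.0547 to 0.202. At d4G it was 0.0925 to 0.269 without any 1 of the wildtype libraries or Nr6a1-/- replicate 1 or 3, and 0.0542 with a replicate block. Without a filter on low counts it was 0.0776 at d4 and 0.0584 at d4G, and a fit of only the libraries compared gave 0.0811 at d4.

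Col27a1 was 13.8, 16.5 and 16.2 CPM in d4 wildtype and 6.26, 9.99 and 6.34 CPM in d4 Nr6a1-/- libraries (log2 fold change -1.05, SE 0.29, FDR 0.00726), with no overlap. Without d4 Nr6a1-/- replicate 3 its FDR was 0.0553. In d4G libraries it was 21.1, 19 and 24.7 CPM and 12.8, 23.6 and 19.8 CPM, with overlap and no call (log2 fold change -0.19, SE 0.25, FDR 0.763).

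Col18a1 (chromosome 10, 77052178 to 77166548, minus strand, GRCm38) was called lower in Nr6a1-/- cells at d4 and d4G. At d3, where its levels are given above, the Nr6a1-/- libraries already lay below all wildtype libraries. The d3 difference was not called (log2 fold change -0.36, SE 0.13, FDR 0.0772), though its FDR was 0.0306 in a fit of only the libraries compared. Col18a1 was 65, 73.2 and 55.6 CPM in d4 wildtype and 39.1, 42.3 and 62.6 CPM in d4 Nr6a1-/- libraries (log2 fold change -0.41, SE 0.14, FDR 0.0305), where the highest Nr6a1-/- library lay above the lowest wildtype library. At d4G it was 63.4, 63.4 and 49.5 CPM and 36.6, 29.9 and 43.1 CPM, with no overlap (log2 fold change -0.62, SE 0.15, FDR 0.00603). The d4 call was lost without d4 wildtype replicate 1 or 2 or d4 Nr6a1-/- replicate 1 or 2 (FDR 0.0607 to 0.153) and in a fit of only the libraries compared (FDR 0.0899). That of d4G was lost when Nr6a1-/- replicate 2 was left out (FDR 0.0530). Markers of primitive and parietal endoderm (Sox7, Gata4, Gata6, Dab2 and Sparc), cells that lay down much basement membrane, were also lower in Nr6a1-/- cells. At d4 their sum was 199 to 236 CPM in wildtype and 34.8 to 42.3 CPM in Nr6a1-/- libraries. At d4G it was 175 to 221 CPM and 65.1 to 87.9 CPM. Most of that sum was Sparc, which many cells express. However, the sum was already lower in every Nr6a1-/- library than in any wildtype library at d2, d2.5 and d3. Col18a1 was not called between the genotypes at those stages (log2 fold change 0.11, -0.21 and -0.36). In wildtype libraries the sum was 183 to 190 CPM at d2 and 281 to 300 CPM at d3, while Col18a1 fell. The part of such endoderm cells in the Col18a1 result was not tested.

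Col13a1 and Col23a1, both transmembrane collagens, and Col26a1 went the other way. Col13a1 (chromosome 10, 61838236 to 61979108, minus strand) was 20.2, 18.6 and 11.3 CPM in d4G wildtype and 34.7, 45.2 and 46.6 CPM in d4G Nr6a1-/- libraries, with no overlap (log2 fold change 1.38, SE 0.20, FDR 6.86e-06), and this call was kept under every alternative run. At d4, where its levels are given above, the d4 Nr6a1-/- libraries also lay above all wildtype libraries (log2 fold change 0.59, FDR 0.0415). That call was lost without any 1 of the d4 wildtype libraries or d4 Nr6a1-/- replicate 2 or 3 (FDR 0.0611 to 0.209), by DESeq2 (FDR 0.118), without normalisation factors (FDR 0.0571), without a filter (FDR 0.1002) and in a fit of only the libraries compared (FDR 0.0737).

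Col23a1 was 1.92, 8.03 and 0.434 CPM in d4G wildtype and 13.3, 11.5 and 11.4 CPM in d4G Nr6a1-/- libraries (log2 fold change 1.80, SE 0.50, FDR 0.0166). All Nr6a1-/- libraries were above the wildtype ones, of which replicate 2 was the highest. Without d4G wildtype replicate 2 the log2 fold change was 3.37, and without replicate 3 it was 1.27. The call was lost without d4G wildtype replicate 1 or 3 or d4G Nr6a1-/- replicate 1 (FDR 0.0877, 0.127 and 0.0637) and by DESeq2 (FDR 0.0636), and the gene had entered the test only through the group where it was high. At the other stages Col23a1 was at or below 2.85 CPM in every library.

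Col26a1, a secreted collagen with EMI domains, was 1.26, 1.08 and 1.74 CPM in d4 wildtype and 2.35, 4.28 and 7.18 CPM in d4 Nr6a1-/- libraries (log2 fold change 1.72, SE 0.55, FDR 0.0242). The groups did not overlap, but without d4 wildtype replicate 1 or 2 or d4 Nr6a1-/- replicate 3 the FDR was 0.0524, 0.0935 and 0.225. In d4G libraries it was 8.65, 8.88 and 11.7 CPM and 15.7, 12.7 and 24.2 CPM, again with no overlap but short of the threshold (log2 fold change 0.91, SE 0.33, FDR 0.0943).

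The promoters of Col11a1 and Col23a1 are shown because Nr6a1 is known to bind the extended half-site TCAAGGTCA and the direct repeat of AGGTCA with no base between its copies, and these are the called genes whose promoter holds the shorter AAGGTCA. RefSeq (GRCm38.p6) windows of 250 bases before to 50 after a start were at hand for 17 of the 24 genes, and for Col1a1, Col2a1, Col5a2, Col9a3, Col14a1, Col22a1 and Col26a1 there was none. On either strand, AAGGTCA is in 4.72% of all 32851 windows, TCAAGGTCA, which contains it, in 0.423% and the direct repeat, which contains both of these, in 0.00609%. Among the windows of the 17 genes, AAGGTCA is in 3, of Col7a1, Col11a1 and Col23a1, and the longer motifs are in none, which says only that these letters are not in these windows. Capitals mark the motif, read on the opposite strand in Col11a1, where it lies at -71 to -65 from the start, and on the gene's own strand in Col23a1, where it lies at -216 to -210.
Col11a1, chr3:114030290-114030589, plus strand: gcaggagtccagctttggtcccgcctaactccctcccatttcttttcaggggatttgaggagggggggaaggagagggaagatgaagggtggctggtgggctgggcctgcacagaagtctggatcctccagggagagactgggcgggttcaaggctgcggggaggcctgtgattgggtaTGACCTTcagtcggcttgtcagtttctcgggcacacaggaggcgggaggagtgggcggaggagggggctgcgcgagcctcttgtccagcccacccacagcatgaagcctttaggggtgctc
Col23a1, chr11:51289670-51289969, plus strand: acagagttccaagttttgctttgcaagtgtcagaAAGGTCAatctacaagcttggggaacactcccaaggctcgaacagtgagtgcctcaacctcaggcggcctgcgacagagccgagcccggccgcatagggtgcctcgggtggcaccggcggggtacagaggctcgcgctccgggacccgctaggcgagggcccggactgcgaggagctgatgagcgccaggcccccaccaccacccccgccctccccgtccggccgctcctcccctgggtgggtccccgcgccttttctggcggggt
Col11a1 was the lower and Col23a1 the higher in Nr6a1-/- cells at d4G, as given above. A match is a description of the letters. Binding was not measured here, and counts from 3′ ends do not tell which start was used.

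Col1a1 and Col1a2 encode the chains of type I collagen, the fibril of skin, bone and tendon, and the levels of these partners moved apart. At d3, Col1a1 was 11.5, 10.2 and 10.4 CPM in wildtype and 4.01, 5.15 and 5.73 CPM in Nr6a1-/- libraries, with no overlap (log2 fold change -1.11, SE 0.34, FDR 0.0305). Col1a2 was 28.3, 31 and 33.1 CPM in wildtype and 38.9, 57.1 and 38.6 CPM in Nr6a1-/- libraries, higher without overlap but not called (log2 fold change 0.52, SE 0.20, FDR 0.0954). The call of Col1a1 was lost when any 1 of the 6 d3 libraries was left out (FDR 0.0512 to 0.119).

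From d3 to d4 both chains fell in wildtype cells, Col1a1 to 0.839, 4.34 and 5.51 CPM (log2 fold change -1.42, SE 0.34, FDR 0.00228) and Col1a2 to 15.5, 10.03 and 11 CPM (log2 fold change -1.33, SE 0.23, FDR 4.6e-05). In Nr6a1-/- cells Col1a2 was 7.43, 5.71 and 8.45 CPM at d4 (log2 fold change -2.54, SE 0.25, FDR 7.88e-10), while Col1a1 was 7.04, 4.76 and 5.07 CPM (log2 fold change 0.27, SE 0.38, FDR 0.662). The fall of Col1a2 was thus the larger in Nr6a1-/- cells, and the difference between the genotypes in the change from d3 to d4 was called for both genes, 2 of 13 beside 5.72% of all genes: log2 fold change -1.21, SE 0.36, FDR 0.0402 for Col1a2 and log2 fold change 1.69, SE 0.52, FDR 0.0452 for Col1a1. Both calls depended on single libraries. For Col1a1 it was lost without each of the d3 and d4 libraries except d3 Nr6a1-/- replicate 3 and d4 wildtype replicate 3 (FDR 0.0528 to 0.118) and in a fit of only the libraries compared (FDR 0.077). For Col1a2 it was lost without d3 wildtype replicate 1, 2 or 3, d3 Nr6a1-/- replicate 2, d4 wildtype replicate 1 or d4 Nr6a1-/- replicate 2 or 3 (FDR 0.0541 to 0.114).

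The count of Col1a1 per count of Col1a2 in the same library, a ratio not adjusted for length, was 0.407, 0.328 and 0.313 in the d3 wildtype and 0.103, 0.0902 and 0.149 in the d3 Nr6a1-/- libraries. At d4 it was 0.0541, 0.432 and 0.500 in wildtype and 0.947, 0.833 and 0.600 in Nr6a1-/- libraries, so the order of the genotypes was turned without overlap. In d4 wildtype replicate 1 the low ratio came from a Col1a1 count of 2 beside a Col1a2 count of 37. Over the pooled counts the ratio was 0.344 (95% interval 0.260 to 0.452, exact, counting error only) in d3 wildtype and 0.112 (0.0773 to 0.157) in d3 Nr6a1-/- cells, then 0.330 (0.221 to 0.483) and 0.784 (0.505 to 1.21) at d4. At d2 the genotypes overlapped, with pooled ratios of 0.420 and 0.372. At d4G the pooled ratios were 1.54 (1.13 to 2.12) in wildtype and 0.970 (0.725 to 1.3) in Nr6a1-/- cells, and the wildtype libraries ran from 1.31 to 1.88 beside 0.744 to 1.29.

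**Figure D3:**
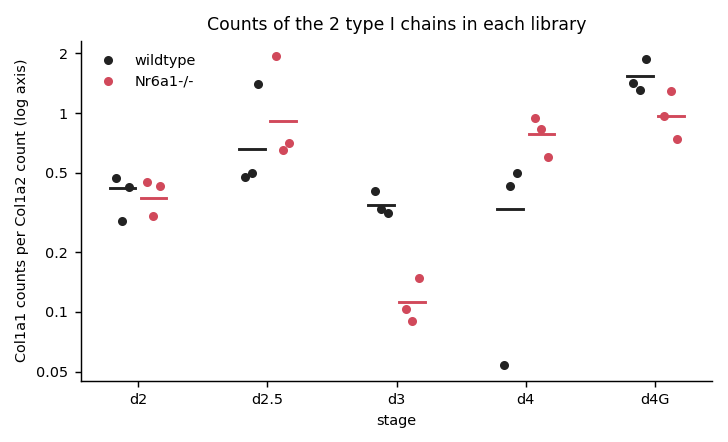
Col1a1 counts per Col1a2 count in each library (y axis, log scale) at the 5 stages (x axis) for wildtype (black) and Nr6a1-/- (red) cells. Bars are ratios of pooled counts; at d3 the Nr6a1-/- libraries lie at 0.0902 to 0.149 below the wildtype ones, and at d4 they lie at 0.600 to 0.947 above them.

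Because the ESCs had been kept on fibroblast feeders, which make type I and type III collagen, a list of 8 fibroblast markers was looked at. This list held Thy1, Postn, Dcn, Lum, Fbln2, Fbln5, Prrx1 and Twist2. Its sum was 19.0 to 25.9 CPM in d3 wildtype and 20.2 to 30.9 CPM in d3 Nr6a1-/- libraries, and 25.2 to 26.3 CPM and 25.4 to 32.4 CPM at d4. Lum was at 0 in 29 of 30 libraries, and Dcn was 3.84, 2.78 and 3.59 CPM in d3 wildtype, 3.61, 2.15 and 6.49 CPM in d3 Nr6a1-/- and at most 1.63 CPM in any d4 or d4G library. In the d3, d4 and d4G libraries without Lum, most of the sum thus came from the other markers of the list. Summed endothelial markers (Pecam1, Cdh5 and Kdr) were at most 8.16 CPM. The part of feeder cells in the type I collagen values was not tested.

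With Gdf11, 4 of the 6 tested fibril-forming genes rose in wildtype cells, beside 14.3% of all genes called higher. In Nr6a1-/- cells 6 of 6 rose, beside 8.45%, while network-forming Col4a6 fell in both genotypes. The difference between the genotypes in this response was called for no tested member by edgeR, as given below. In wildtype cells, d4G against d4, 5 members rose (Col1a1, Col2a1, Col5a1, Col11a1 and Col26a1) and Col4a6 fell, 6 of 13 beside 28.8% of all genes. In Nr6a1-/- cells, 9 rose, the same 5 with Col1a2, Col13a1, Col23a1 and Col27a1, and Col4a5, Col4a6 and Col18a1 fell, 12 of 13 beside 18.0% of all genes. Col23a1 had passed the filter only through d4G Nr6a1-/- libraries, so that its place in these counts is not independent of its high level there. The same holds for Col26a1, which passed only through the d4G groups. Col4a5 and Col4a6 passed only through d3 Nr6a1-/- and the d4 groups, so their fall is not independent of the filter either. Without d4 wildtype replicate 2, 6 were again called in wildtype cells. The comparison has the d4 libraries in common with the genotype comparison at d4, and all 3 wildtype pairs of equal replicate number, and the Nr6a1-/- replicate 1 pair, have 1 index in common. Some markers of other cells moved with Gdf11. The summed sclerotome and cartilage markers were 10.03 to 12.5 CPM in d4 and 42.5 to 44.7 CPM in d4G wildtype libraries. In Nr6a1-/- libraries this sum overlapped between d4 and d4G, at 13.3 to 21.6 CPM and 14.6 to 19.96 CPM. Summed presomitic mesoderm markers were 152 to 184 CPM in d4G wildtype and 257 to 287 CPM in d4G Nr6a1-/- libraries, below their d4 values given above. The fibroblast sum was 39.5 to 46.1 CPM in d4G wildtype libraries, above d4, and 28.6 to 34.7 CPM in d4G Nr6a1-/- libraries. Lum was at 0 in every d4G library and Dcn at most 0.637 CPM, so the higher wildtype sum lay in other markers of that list. Their part in the results that follow was not tested.

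Col2a1 went from 15.1, 11.4 and 14.2 CPM at d4 to 59.1, 61.3 and 50.8 CPM at d4G in wildtype libraries (log2 fold change 1.99, SE 0.21, FDR 2.25e-09). In Nr6a1-/- libraries it went from 1.17, 5.71 and 4.23 CPM to 19.5, 22.9 and 26.4 CPM (log2 fold change 2.60, SE 0.32, FDR 1.01e-07). The difference between the genotypes in this log2 change was 0.61, with a 95% interval of -0.19 to 1.41 (FDR 0.524). Col1a1 rose to 13, 14.4 and 20.4 CPM in wildtype (log2 fold change 1.95, SE 0.32, FDR 1.16e-05) and 14.7, 22.9 and 12.8 CPM in Nr6a1-/- libraries (log2 fold change 1.45, SE 0.32, FDR 0.00108).

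Col5a1, which starts the assembly of collagen fibrils, was 5.87, 4.34 and 4.64 CPM at d4 and 12.5, 13.1 and 8.24 CPM at d4G in wildtype libraries (log2 fold change 1.11, SE 0.32, FDR 0.00831). In Nr6a1-/- libraries it was 3.13, 5.71 and 4.23 CPM and 13.3, 7.64 and 13.2 CPM (log2 fold change 1.36, SE 0.36, FDR 0.00521). The d4 and d4G libraries did not overlap in either genotype. Exons of Col5a1 overlap 2 non-coding genes on the other strand, 2810430I11Rik and Gm13372, from which its reads cannot be told without strand. Col11a1 rose by 0.80 on the log2 scale in wildtype (FDR 0.00467) and 0.82 in Nr6a1-/- cells (FDR 0.0331), and the latter call was lost without d4 Nr6a1-/- replicate 1 or 3 or d4G Nr6a1-/- replicate 2 or 3 (FDR 0.0696 to 0.153), without a filter, by DESeq2 and in a fit of only the libraries compared (FDR 0.0558 to 0.0722). Col26a1 rose by 2.70 (FDR 4.14e-05) in wildtype and 1.89 (FDR 0.0003) in Nr6a1-/- cells.

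The network-forming pair fell. Col4a6 was 6.71, 4.88 and 7.25 CPM at d4 and 2.4, 2.54 and 1.3 CPM at d4G in wildtype libraries (log2 fold change -1.65, SE 0.44, FDR 0.00433), and 8.21, 6.19 and 7.18 CPM and 1.9, 0.637 and 1.76 CPM in Nr6a1-/- libraries (log2 fold change -2.30, SE 0.49, FDR 0.000791). Col4a5 was 4.62, 4.07 and 4.64 CPM and 1.92, 2.54 and 2.17 CPM in wildtype libraries, without overlap but short of the threshold (log2 fold change -1.07, SE 0.43, FDR 0.0564). In Nr6a1-/- libraries it was 7.43, 9.52 and 6.34 CPM and 3.8, 2.55 and 3.52 CPM (log2 fold change -1.26, SE 0.38, FDR 0.0172), a call lost without d4 Nr6a1-/- replicate 2 or d4G Nr6a1-/- replicate 2 or 3 (FDR 0.0551 to 0.0664) and by DESeq2 (FDR 0.0580). The fall of Col18a1 in Nr6a1-/- cells (log2 fold change -0.44, FDR 0.0450) was lost without d4 Nr6a1-/- replicate 3 or d4G Nr6a1-/- replicate 1 or 2 (FDR 0.102 to 0.362), by DESeq2 (FDR 0.0652), with other or no normalisation factors (FDR 0.0506 and 0.116) and in a fit of only the libraries compared (FDR 0.122).

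**Figure D4:**
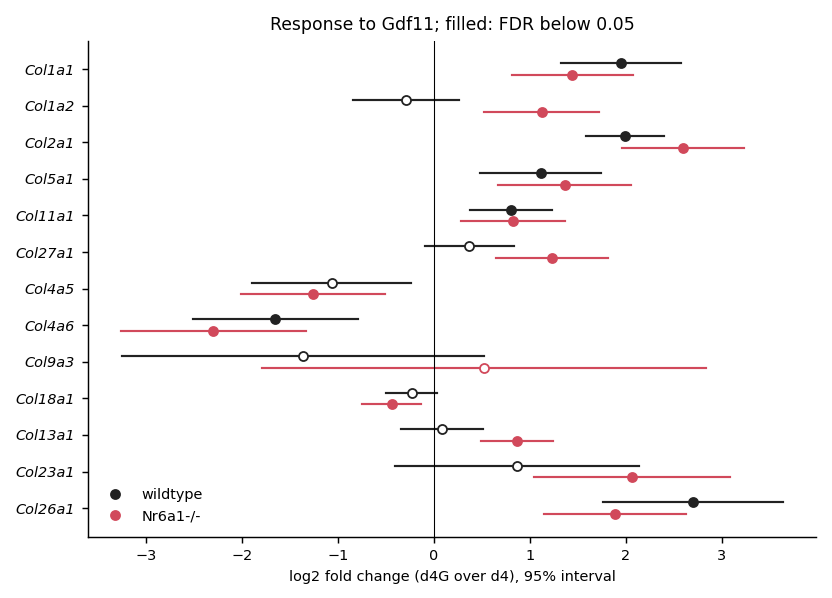
log2 fold change (x axis, d4G over d4) with 95% intervals for the 13 tested collagen genes (rows) in wildtype (black) and Nr6a1-/- (red) cells. Filled points passed an FDR of 0.05; Col2a1 lay at 1.99 and 2.60, and Col4a6 at -1.65 and -2.30, in wildtype and Nr6a1-/- cells.

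The genotype difference in the Gdf11 response was called for 0 of 13 members by edgeR, beside 2.66% of all genes. At an unadjusted p below 0.05 there were 3 (Col1a2, Col13a1 and Col27a1), and DESeq2 called 1. That gene was Col1a2, which was 15.5, 10.03 and 11 CPM at d4 and 9.13, 11 and 10.8 CPM at d4G in wildtype libraries, and 7.43, 5.71 and 8.45 CPM and 15.2, 17.8 and 17.2 CPM in Nr6a1-/- libraries. The stages did not overlap in Nr6a1-/- cells and did in wildtype cells. The difference was 1.41 with a 95% interval of 0.60 to 2.23 (FDR 0.0582). DESeq2 gave it an FDR of 0.0419, and without d4 wildtype replicate 2 or d4 Nr6a1-/- replicate 1 the FDR was 0.0453 and 0.0416. For Col13a1 the difference was 0.79 with an interval of 0.22 to 1.36 (FDR 0.159), and for Col27a1 it was 0.86 with an interval of 0.12 to 1.61 (FDR 0.263).

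The 11 genes that did not pass the filter were low throughout, and their libraries hold few counts. The fibril-forming ones were Col3a1, the partner of type I collagen in soft tissue, with at most 4.88 CPM in a library, Col5a2 with at most 4.09 CPM and Col11a2 with at most 4.34 CPM. Col7a1, of the anchoring fibrils under epithelia, was 7.57, 4.51 and 1.32 CPM in d2 wildtype and 7.83, 2.92 and 2.97 CPM in d2 Nr6a1-/- libraries and at most 2.40 CPM at d3 or later. Col6a5 was 2.1, 1.5 and 4.28 CPM in d2 wildtype and 1.38, 1.1 and 1.12 CPM in d2 Nr6a1-/- libraries, and Col6a2 was at most 2.53 CPM, both being chains of beaded filaments. Col22a1 was at most 4.97 CPM, Col16a1 at most 2.64 CPM and Col8a1, a network-forming chain, at most 2.85 CPM.

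When genes were not filtered, 2 of these 11 were called between genotypes over the 5 stages, 1 at d3, beside 3.62% of 31959 genes, and 1 at d4G, beside 2.82%. None was called at d2, d2.5 or d4 by edgeR, beside 1.74%, 2.61% and 6.46% of all genes. Col9a2 was 3.36, 1.39 and 1.99 CPM in d3 wildtype and 0, 0.43 and 0.382 CPM in d3 Nr6a1-/- libraries, from 15 and 2 counts in total (ratio of CPM 0.121, 95% counting interval 0.0134 to 0.52, FDR 0.0419). Col14a1, a fibril-associated chain of mesenchyme, was 0.961, 0.423 and 0.434 CPM in d4G wildtype and 2.85, 5.73 and 3.52 CPM in d4G Nr6a1-/- libraries (log2 fold change 2.63, FDR 0.0173), from 4 and 23 counts in total. For both genes the libraries of the genotypes did not overlap. However, Col14a1 reached a mean of 2 CPM only in the d4G Nr6a1-/- group, so its place among the genes described is not independent of its high level there.

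In the same unfiltered fit, Col16a1 was higher with Gdf11 in wildtype cells, with 15 counts against 3 (ratio of CPM 7.05, 95% counting interval 1.99 to 38, FDR 0.0345), beside 9.69% of all genes. Col8a1 was higher with Gdf11 in Nr6a1-/- cells, with 13 counts against 1 (ratio 15.4, interval 2.31 to 653, FDR 0.0307), beside 6.36%. Col16a1 reached a mean of 2 CPM only in the d4G wildtype group and Col8a1 only in the d4G Nr6a1-/- group. Their rise with Gdf11 is thus not independent of the limit by which they were taken. From d2 to d3 in Nr6a1-/- cells 3 of the 11 were called, beside 11.4% of all genes. Col9a2 went from 19 counts to 2 (ratio 0.107, interval 0.0121 to 0.445, FDR 0.00505) and Col7a1 from 33 to 10 (log2 fold change -1.69, FDR 0.0190), while Col22a1 went from 6 to 26 (log2 fold change 2.04, FDR 0.0147). Exons of Col22a1 overlap those of Gm16308 on the other strand, from which its reads cannot be told without strand.

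Several of the genes that fold and modify collagen chains were lower in Nr6a1-/- cells, most of them at d2.5 and d3. Of 17 such genes 13 were tested. Of these, 2 were called lower in Nr6a1-/- cells at d2, beside 2.72% of all genes called lower, and 5 at d2.5, beside 3.59%. The count of lower genes was 6 at d3, beside 6.29%, then 4 at d4, beside 9.17%, and 2 at d4G, beside 4.63%. Serpinh1 was called higher, at d4. At d3 the 6 were P4ha1, P4ha2 and P4hb (prolyl 4-hydroxylase subunits), Plod2 (a lysyl hydroxylase), Colgalt1 (a galactosyltransferase of collagen) and Serpinh1 (the collagen chaperone HSP47), with log2 fold changes between -0.89 and -0.24. The median over the 13 was -0.33 at d3, beside 0.00 over all genes.

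Serpinh1 was 132, 141 and 127 CPM in d2 wildtype and 55.3, 61.1 and 61.3 CPM in d2 Nr6a1-/- libraries (log2 fold change -1.2, SE 0.13, FDR 6.89e-08). At d3 it was 251, 272 and 272 CPM and 181, 180.0 and 169 CPM (log2 fold change -0.60, SE 0.12, FDR 0.000394). At d4 it was 316, 246 and 304 CPM and 318, 587 and 507 CPM (log2 fold change 0.71, SE 0.11, FDR 6.02e-06). The order was thus turned at d4, where every Nr6a1-/- library lay above every wildtype library, and at d4G the groups overlapped. P4ha1 was 18.1, 19 and 15.1 CPM in d2 wildtype and 6.91, 3.66 and 8.18 CPM in d2 Nr6a1-/- libraries (log2 fold change -1.50, SE 0.25, FDR 0.000125), and it was not called at d4 or d4G.

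**Figure D5:**
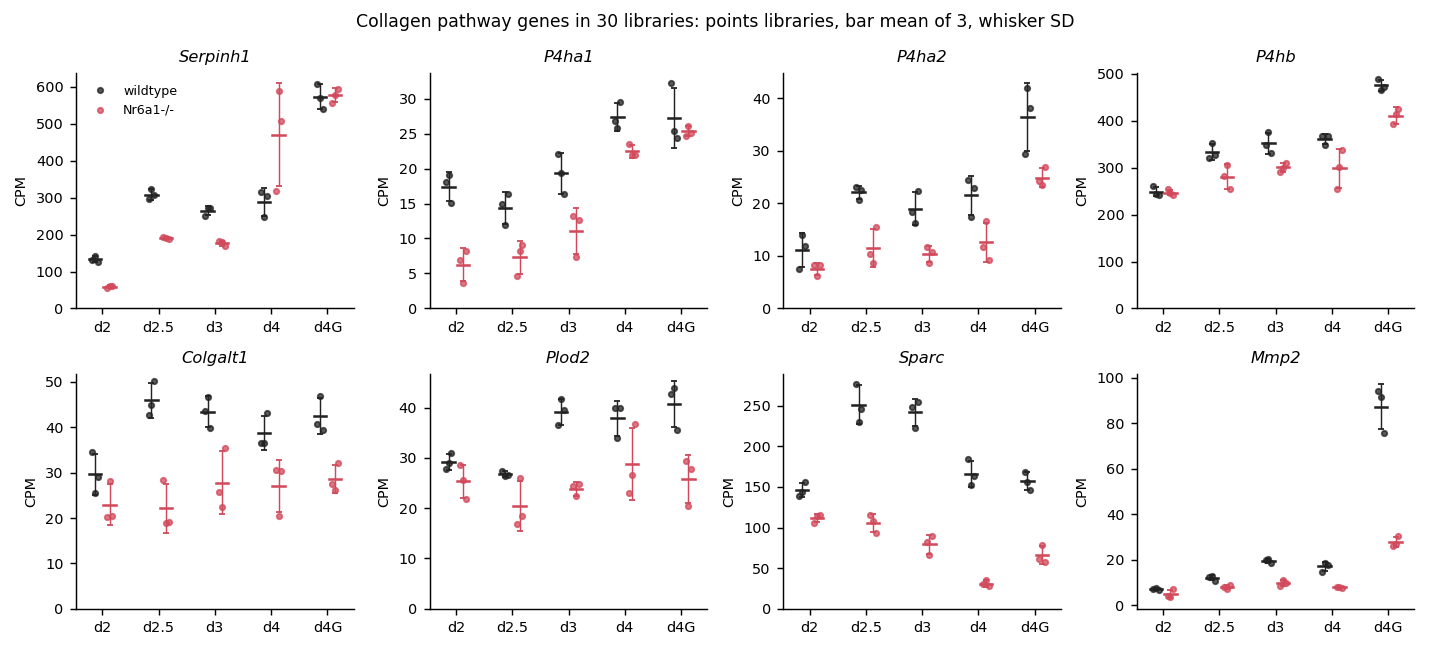
CPM (y axis) of 8 genes that modify, bind or degrade collagen at the 5 stages (x axis) in wildtype (black) and Nr6a1-/- (red) cells. Points are libraries, bars are means of 3 and whiskers are SDs; Serpinh1 is lower in Nr6a1-/- cells at d2 to d3 and higher at d4, and Sparc is lower at all 5 stages.

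Of 12 genes of processing and cross-linking 5 were tested. Sparc, a protein that binds collagen and aids its secretion, was lower at all 5 stages. At d4 it was 184, 152 and 163 CPM in wildtype and 30.1, 35.2 and 27.5 CPM in Nr6a1-/- libraries (log2 fold change -2.41, SE 0.13, FDR 7.35e-17). Loxl2, a lysyl oxidase that cross-links chains, was lower at d2.5 and d3 and higher at d4: at d3 it was 13.4, 15.3 and 16.4 CPM and 5.61, 5.58 and 7.26 CPM (log2 fold change -1.30, SE 0.24, FDR 0.000224), and at d4 12.6, 10.8 and 10.4 CPM and 21.1, 14.3 and 22.4 CPM (log2 fold change 0.82, SE 0.19, FDR 0.00223). Pcolce, an enhancer of procollagen cleavage, was 11.1, 12.3 and 13 CPM in d4G wildtype and 23.8, 21 and 26 CPM in d4G Nr6a1-/- libraries (log2 fold change 1.01, SE 0.20, FDR 0.000576), and Pcolce2 was higher there as well (log2 fold change 1.2, SE 0.17, FDR 3.16e-06).

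Of 7 collagen receptor genes 3 were tested. Itga1, an integrin chain that binds collagen, was 4.2, 4.07 and 3.48 CPM in d4 wildtype and 18.4, 31.9 and 26.2 CPM in d4 Nr6a1-/- libraries (log2 fold change 2.70, SE 0.28, FDR 2.26e-09) and was higher at d2, d2.5 and d4G also. Itgb1, its partner chain, was lower at d2, d2.5, d3 and d4G, at d4G with 166, 154 and 169 CPM in wildtype and 92.2, 98.7 and 125 CPM in Nr6a1-/- libraries (log2 fold change -0.58, SE 0.12, FDR 0.000695). Ddr1, a receptor tyrosine kinase for collagen, was higher at d2 (log2 fold change 0.65, SE 0.18, FDR 0.0276).

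Of 6 proteases that cut collagen 3 were tested. Mmp2, a gelatinase, was lower at d3, d4 and d4G, and at d4G it was 94.2, 91.7 and 75.9 CPM in wildtype and 26.1, 26.7 and 30.4 CPM in Nr6a1-/- libraries (log2 fold change -1.60, SE 0.14, FDR 2.47e-11). Mmp14, the membrane-bound protease that activates Mmp2, was higher at d3 (log2 fold change 0.57, SE 0.19, FDR 0.0426) and d4 (log2 fold change 0.96, SE 0.18, FDR 0.000186). Gdf11 raised both Mmp2 and Mmp14 in cells of both genotypes. In wildtype cells Gdf11 also raised 5 of the 13 folding and modifying genes, beside 14.3% of all genes called higher, and lowered 1, Crtap, beside 14.5% called lower. It raised 3 in Nr6a1-/- cells, beside 8.45%, and edgeR called none lower, beside 9.59%.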

How the data were processed

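Gene expression was measured by 3′-end RNA sequencing, in which poly(A)-primed cDNA carries a sample index and a molecular identifier. The authors aligned reads to mm10 with STAR, and the deposited table holds raw counts per gene and library. How reads were counted, whether molecular identifiers were collapsed and whether strand was used are not given in the sources used here, so intervals and floors from counts cover counting error only. Reads come from 3′ ends, so a deletion upstream need not change a gene's count. Each of the 30 columns matched 1 sample by its labels. The authors' tables of their own comparisons (log2 fold changes, p-values and CPM) were not used.

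Counts were tested in R 4.3.3 with edgeR 4.0.16 (TMM factors, 1 coefficient per group over all 30 libraries, quasi-likelihood test, Benjamini-Hochberg FDR over 12149 genes), without a replicate block. Contrasts were the genotypes at each stage, d4G against d4, d3 against d2 and d4 against d3 within genotype, and the genotype differences in these changes. Alternatives were other normalisation factors, no filter, DESeq2 1.42.0, a fit of only the libraries compared, a replicate block and leaving out each library in turn. The fit was tested on simulated counts. Every collagen gene at 2 CPM or more in a group was named, and of the other lists those that passed the test or were needed as a check. The collagen genes, the marker lists and the lists of collagen-related genes were chosen with earlier results of these data known. Positions are from GENCODE M21 and promoters from RefSeq, both on GRCm38. Levels have SDs in the plots and each library's value in the text.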

Additional observations from a re-analysis of the deposited data

Results flagged for a closer look

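The change from d3 to d4 differed between the genotypes for both chains of type I collagen, by the interaction term of edgeR's fit. For Col1a2 the log2 change in Nr6a1-/- cells was -2.54 and that in wildtype cells -1.33, a difference of -1.21 (SE 0.36, FDR 0.0402). For Col1a1 the log2 change was 0.27 in Nr6a1-/- and -1.42 in wildtype cells, a difference of 1.69 (SE 0.52, FDR 0.0452). The wildtype level of Col1a1 at d4 includes replicate 1, with 0.839 CPM beside 4.34 and 5.51 CPM, and without that library the difference was 1.35 (FDR 0.0956). Without it the difference of Col1a2 was -1.02 (FDR 0.114). The part of this library in either result was not tested further.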

How the results depend on the processing

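Of 58 calls over the 14 comparisons, 39 were kept under every alternative run and 19 were lost under at least 1, 12 of them under an alternative other than leaving out a library. A further 8 values not called became called under some alternative, and no called value changed sign. The cause of a change was not tested.

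Between the genotypes at d3, 2 called members became 1 without normalisation factors, 1 with a replicate block and 4 in a fit of only the libraries compared. At d4, 6 became 2 in a fit of only the libraries compared, and at d4G, 5 became 3 by DESeq2. For the genotype difference in the Gdf11 response, 0 became 1 without a filter, by DESeq2 and in a fit of only the libraries compared. That fit also gave 1 in place of 0 for the difference in the change from d2 to d3, and 1 in place of 2 for that from d3 to d4. With each library left out in turn, counts were 0 to 1 at d3, 2 to 5 at d4, 3 to 4 at d4G, 0 to 1 for the Gdf11 interaction and 0 to 2 for the difference in the change from d3 to d4. A group left with 2 libraries shared the spread of the others.

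Deviations of samples of equal replicate number had correlations of -0.11 to 0.16, so the numbers do not pair samples throughout. The highest were 0.117 and 0.162, for replicates 1 and 3 of d4 and d4G wildtype, and 0.134, for replicate 3 of d3 and d4 Nr6a1-/-. These pairs share an index, and unequal numbers reached at most 0.0246 and 0.0197 in these comparisons. The other pairs with a shared index were at 0.0241 or below. A replicate block ended the calls of Col2a1 at d3 and Col11a1 at d4G. With it, 6 members were called at d4, 4 at d4G, 6 and 12 for Gdf11 in wildtype and Nr6a1-/- cells and 2 for the change from d3 to d4, and beside that at d3 the other counts were within 1.5 times those without it.

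Low levels rest on a few counts, so changes in the 11 untested genes may not have been detectable at this depth.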
